A study of Mus musculus with 6 samples.

Results

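The genes described here drive the copying of DNA and the division of the cell, and they were read from arrays of Apcfl/fl liver with hepatocellular carcinoma (HCC) and of Apc+/+ liver. Members were taken from the mRNA probes that the authors list in their deposited table and whose RefSeq symbol begins with Cdc, Cdk, Ccna, Ccnb, Ccnd, Ccne, Kif, Mcm, Cenp, Aurk, Bub, Plk, Nek, Ncap, Rfc, Rrm, Orc or E2f, or is Top2a, Mki67, Birc5, Cdt1 or Tpx2. The rule found 51 genes on 52 probes, out of 2114 distinct symbols on 2280 listed mRNA probes, and for a gene on more than 1 probe the brightest was used. The table is preselected, since it holds the probes that the authors had called between these same groups. Which genes appear, and the direction and size of their change, were therefore in part fixed by that selection and are given as a description. In RefSeq these families hold 229 protein-coding symbols. No listed probe mapped to a Bub, Ccnd, Nek, Ncap, Orc or E2f symbol, nor to Top2a, Mki67 or Tpx2, and those genes were not analysed here.

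Both groups were C57Bl/6 mice aged 12 months. The first group was liver with HCC from mice labelled APC fl/fl, which per the study's methods are animals with a hypomorphic Apc allele in which the Wnt/β-catenin pathway is active in the tumour, and the control was liver without HCC from mice labelled APC +/+. The labels give no Cre driver and no treatment for either group, and sex was not given in the sources used here. Among the 3 HCC arrays, replicates 1 and 2 lay closer together than the technical noise (mean chi-square 0.774, against 6.37 to 23.4 for all other pairs except 1.99 for Apc+/+ replicates 2 and 3), so their mean was counted as 1 sample. This left 2 HCC samples and 3 liver samples, and results with 6 arrays as 6 samples are given beside them. Per the study's methods each group was the liver of 3 mice, and the labels name no animals or tumours, so p-values measure only the spread between these samples. With so few samples the precision is low. Apc+/+ replicate 2 had 50.8% of its probes well above background, and the other arrays had 70.7% to 82.8%. Of negative-control spots, which have no intended target, 8.25% were scored so on that replicate and 24.8% to 57.6% on the other arrays. Such a score alone therefore does not show a specific signal. Each sample was a piece of whole tissue, so more dividing cells and more RNA per dividing cell cannot be told apart.

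Before a cell divides, the MCM helicase is loaded on DNA with the help of Cdt1, a step called licensing. Cyclin-dependent kinases (CDKs) with cyclins E and A then fire the origins, and replication factor C loads the sliding clamp for the polymerases while ribonucleotide reductase supplies the nucleotides. Entry into mitosis is driven by Cdk1 with cyclin B and by the Polo and Aurora kinases. Kinesins and centromere proteins attach and move the chromosomes, and Cdc20 switches on the anaphase-promoting complex so that the cell can leave mitosis. Adult liver cells are mostly at rest and carry little RNA of these genes, whereas regenerating and tumour tissue carries more. Genes of the S phase are known for E2F sites in their promoters, and genes of mitosis for a cell cycle genes homology region (CHR) near a CCAAT box, which binds NF-Y.

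Promoter sequence was not used to choose the members, and the windows of the 4 marker genes, and of Mcm10 as a replication gene that was lower in HCC, are printed to show these elements. The windows are from RefSeq (GRCm38.p6), 300 bases each, from 250 before the transcription start to 50 after it, written 5′ to 3′ on the gene's strand, and all 5 genes lie on the minus strand. Capitals mark an E2F site, a CHR element or a CCAAT box. The E2F site was searched in the spelling TTTGGCG and in the variant spelling TTTCCCG, in the further variant TTTCGCG and in the spelling TTTGCCG. The CHR element was read as TTTGAA or in the variant form TTCGAA, and the CCAAT box by its name. Each was searched on both strands. Cdc20 is at chr4:118437294-118437593, Cdk1 at chr10:69352863-69353162, Aurka at chr2:172370521-172370820, Mcm6 at chr1:128359656-128359955 and Mcm10 at chr2:5012742-5013041.
Cdc20: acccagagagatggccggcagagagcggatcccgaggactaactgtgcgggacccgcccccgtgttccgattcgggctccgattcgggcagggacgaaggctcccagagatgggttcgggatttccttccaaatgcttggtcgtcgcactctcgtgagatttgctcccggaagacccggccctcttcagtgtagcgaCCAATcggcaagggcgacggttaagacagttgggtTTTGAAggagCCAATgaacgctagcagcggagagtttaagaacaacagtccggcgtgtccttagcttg
Cdk1: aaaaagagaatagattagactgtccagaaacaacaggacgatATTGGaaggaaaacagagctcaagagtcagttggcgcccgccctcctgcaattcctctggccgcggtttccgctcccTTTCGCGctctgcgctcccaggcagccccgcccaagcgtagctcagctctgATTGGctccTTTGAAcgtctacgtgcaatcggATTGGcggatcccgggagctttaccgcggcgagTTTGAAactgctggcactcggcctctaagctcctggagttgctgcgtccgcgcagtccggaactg
Aurka: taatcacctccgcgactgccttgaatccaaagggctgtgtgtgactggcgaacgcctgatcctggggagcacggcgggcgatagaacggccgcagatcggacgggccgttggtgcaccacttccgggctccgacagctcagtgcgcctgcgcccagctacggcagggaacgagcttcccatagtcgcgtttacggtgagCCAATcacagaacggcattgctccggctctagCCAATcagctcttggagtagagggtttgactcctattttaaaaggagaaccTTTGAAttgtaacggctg
Mcm6: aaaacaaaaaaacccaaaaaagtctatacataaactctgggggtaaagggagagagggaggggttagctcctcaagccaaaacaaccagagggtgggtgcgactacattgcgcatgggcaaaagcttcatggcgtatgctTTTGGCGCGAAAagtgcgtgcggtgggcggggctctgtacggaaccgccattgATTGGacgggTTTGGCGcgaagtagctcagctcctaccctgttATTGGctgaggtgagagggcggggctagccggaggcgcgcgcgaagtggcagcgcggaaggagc
Mcm10: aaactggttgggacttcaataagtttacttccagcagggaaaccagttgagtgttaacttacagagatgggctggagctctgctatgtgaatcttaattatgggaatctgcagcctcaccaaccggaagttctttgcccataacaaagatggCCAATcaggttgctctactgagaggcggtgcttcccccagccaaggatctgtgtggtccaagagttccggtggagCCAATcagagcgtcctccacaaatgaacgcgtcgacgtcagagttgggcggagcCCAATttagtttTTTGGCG
In Cdc20 the CHR element spans bases -18 to -13, counted from the start at base 1, with CCAAT boxes from -53 to -49 and from -8 to -4. Cdk1 holds 2 CHR elements, beginning at -71 and -15, and an E2F site beginning at -131. Aurka has its CHR element after the start, from 33 to 38, and 2 CCAAT boxes before it. Mcm6 holds no CHR element and 3 E2F sites, of which a pair beginning at -110 and -105 overlaps. Mcm10 has 3 CCAAT boxes and an E2F site at the end of the window, from 44 to 50. A match of letters is a description and not evidence of binding.

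A window existed for 47 of the 51 members, all but Ccna2, Cdk19, Cdk5r1 and Cdkl3, and the background was 21263 windows of 17492 protein-coding genes. Among mitosis genes that were higher in HCC, 14 of 23 held a CHR element, against 17.6% of all windows. A CHR element and a CCAAT box stood together in 13 of the 23, or 56.5%, against 7.11% of all windows. In all 14 the CHR element lay within 100 bases of the start, where 43.8% of all windows with a CHR element had theirs. Neither of the 2 mitosis genes that were lower in HCC, Ccna1 and Cenpb, held a CHR element, and 2 genes are too few to read a share from. Among the 8 windows of all members that were lower, 1 held both elements, that of Cdk16. Of the 7 replication genes, 4 held an E2F site (Cdt1, Mcm6, Rfc3 and Mcm10), against 8.04% of all windows, and 2 held a CHR element. Mitosis genes held an E2F site in 7 of 25 windows. The 13 mitosis genes with both elements had a median log2 change of 2.43 and the 10 without both had 2.36, so the size of the change was close in both sets. Kifc1 and Kifc5b are near-identical copies and count as separate genes here. A TCF/LEF site, the motif of the factors that carry the Wnt signal, was searched in the spelling CTTTGAT only. That spelling was in 3.22% of all windows and in 0 of the members' windows. Near spellings were not counted, such as the CTTTGAA in the printed windows of Cdk1 and Aurka, so absence of the motif is not shown. No test was made of these shares. In RefSeq the families hold 74 mitosis symbols, of which 25 were listed, and the windows of the unlisted ones were not counted apart. The shares therefore do not separate mitosis genes that were higher in HCC from mitosis genes in general.

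Levels are given on the log2 scale after quantile normalisation of the processed intensity, and a change is the mean of the HCC samples minus that of the liver samples. A gene passed the threshold at an adjusted p below 0.05, by limma with Benjamini-Hochberg adjustment over all 45640 tested probes, with at least a 2-fold change. All 51 members passed the filter on dim probes. Of the 51, 42 were higher and 9 lower in HCC, with a median log2 change of 1.92, against 1.04 for the 2228 other mRNA probes of the table and 0.06 for all tested probes. The threshold was passed by 18 members, all higher, where 1.92% of all tested probes (1.03% upwards and 0.896% downwards) and 19.1% of the other listed mRNA probes passed it. With 6 arrays as 6 samples 34 higher and 3 lower members passed, where 3.44% of all probes passed upwards and 4.10% downwards. At the threshold of the study's methods, 2-fold with an unadjusted p up to 0.05, 45 members passed, against 11.2% of all probes. In all 51 genes the 3 HCC arrays lay on 1 side of the 3 liver arrays, as they did for 33.8% of all tested probes. Nothing is read from these counts, because the table was selected on the same contrast.

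**Figure D1:**
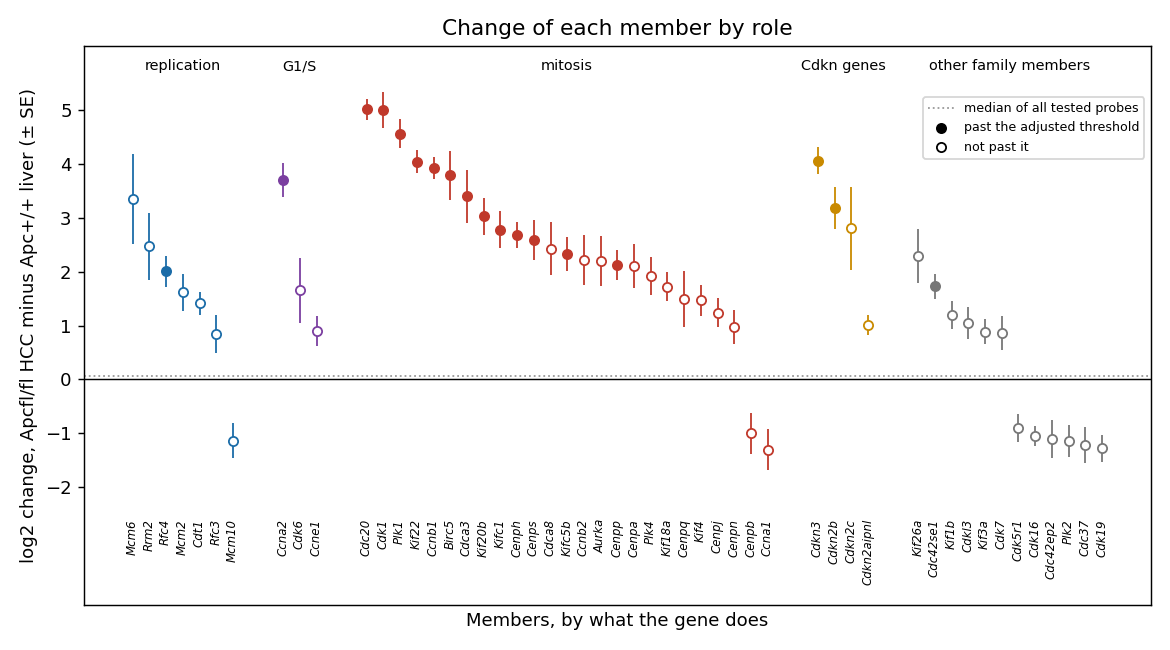
Change of the 51 members between Apcfl/fl HCC (2 samples) and Apc+/+ liver (3 samples), as log2 difference with its standard error, grouped by role. Filled points passed the adjusted threshold. The mitosis genes reach 5.02 (Cdc20) and the replication genes 3.36 (Mcm6, against a liver signal within the range of the negative controls), and 9 members lie below 0.

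By role, the mitosis genes had a median change of 2.32 over 25 genes (23 higher, 2 lower, 13 past the threshold) and the replication genes 1.61 over 7 genes (6 higher, 1 lower, 1 past the threshold). The 3 genes grouped under the passage from G1 to S (G1/S) had a median of 1.66, with 1, Ccna2, past the threshold. The 4 Cdkn genes had 3.00 with 2 past it. The 12 remaining family members were divided evenly, with 6 higher, 6 lower and a median of -0.02. The difference between the medians of mitosis and replication was not tested, and it depended on which samples were read. Without HCC replicates 1 and 2, so with replicate 3 as the lone HCC sample, the medians were nearly equal, at 1.88 for mitosis and 1.80 for replication. Without HCC replicate 3 they were 2.75 and 1.43, without Apc+/+ replicate 1 they were 2.30 and 1.89, and with normexp background correction they were 1.65 and 1.34.

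Of the licensing genes, Mcm6, a subunit of the MCM helicase, read 8.76, 8.86 and 6.68 on the HCC arrays and 3.47, 5.35 and 4.35 on the liver arrays. The groups did not overlap, and replicate 3 was the lowest HCC array. The change of 3.36 (SE 0.83), or 10.2-fold, did not pass the threshold with 5 samples (adjusted p 0.125 by limma) and passed with 6 arrays (adjusted p 0.0335). Its liver mean, 4.39, lay below the brightest negative-control probe, a probe with no intended target, at 5.50, so the size of the change is uncertain. Mcm2, another helicase subunit, read 8.32, 8.16 and 8.61 in HCC and 7.37, 6.57 and 6.49 in liver, a change of 1.61 (SE 0.34, adjusted p 0.0936 by limma). Its HCC arrays were close together and Apc+/+ replicate 1 stood above the other liver arrays. Cdt1, the loading factor, read 11.65, 11.61 and 11.60 in HCC and 10.44, 10.10 and 10.06 in liver. Its change of 1.41 (SE 0.21) was even across the HCC arrays and narrowly missed the threshold, with an adjusted p of 0.0514 by limma.

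At the fork, Rfc4, a subunit of the clamp loader, was the replication gene that rose past the threshold. It read 10.29, 10.31 and 9.98 in HCC and 8.54, 7.82 and 8.02 in liver, a change of 2.01 (SE 0.29, adjusted p 0.0482 by limma). Rfc3, a further subunit of the same complex, read 9.23, 9.25 and 8.33 against 7.62, 8.06 and 8.16, with a change of 0.84 (SE 0.35, adjusted p 0.305). HCC replicate 3 of Rfc3 stood only just above the highest liver array. Rrm2, the small subunit of ribonucleotide reductase, read 7.93, 8.18 and 6.99 in HCC and 6.03, 4.81 and 4.29 in liver, a change of 2.48 (SE 0.62, adjusted p 0.126 by limma). Mcm10, which helps to activate the loaded helicase, ran the other way. It read 5.45, 5.40 and 4.63 in HCC and 5.90, 6.39 and 6.22 in liver, a change of -1.14 (SE 0.32, adjusted p 0.155 by limma and 0.0792 with 6 arrays). The mean of its HCC samples, 5.03, lay below the brightest negative-control probe.

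Ccna2, the cyclin A of dividing body cells, was grouped here with the passage from G1 to S, although cyclin A also acts later, in firing the origins. Of the genes so grouped, Ccna2 alone rose past the threshold. It read 10.82, 10.94 and 9.99 in HCC and 6.63, 6.69 and 6.83 in liver, a change of 3.71 (SE 0.31, adjusted p 0.0196 by limma). Cdk6, a cyclin D kinase, read 7.38, 7.53 and 5.53 against 5.17, 4.59 and 4.76, with a change of 1.66 (SE 0.61, adjusted p 0.248). Its HCC replicate 3 lay close to the liver arrays. Ccne1, a cyclin E that partners Cdk2, read 6.81, 6.77 and 6.38 against 5.61, 5.41 and 6.05, with a change of 0.89 (SE 0.28, adjusted p 0.194), under 2-fold.

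**Figure D2:**
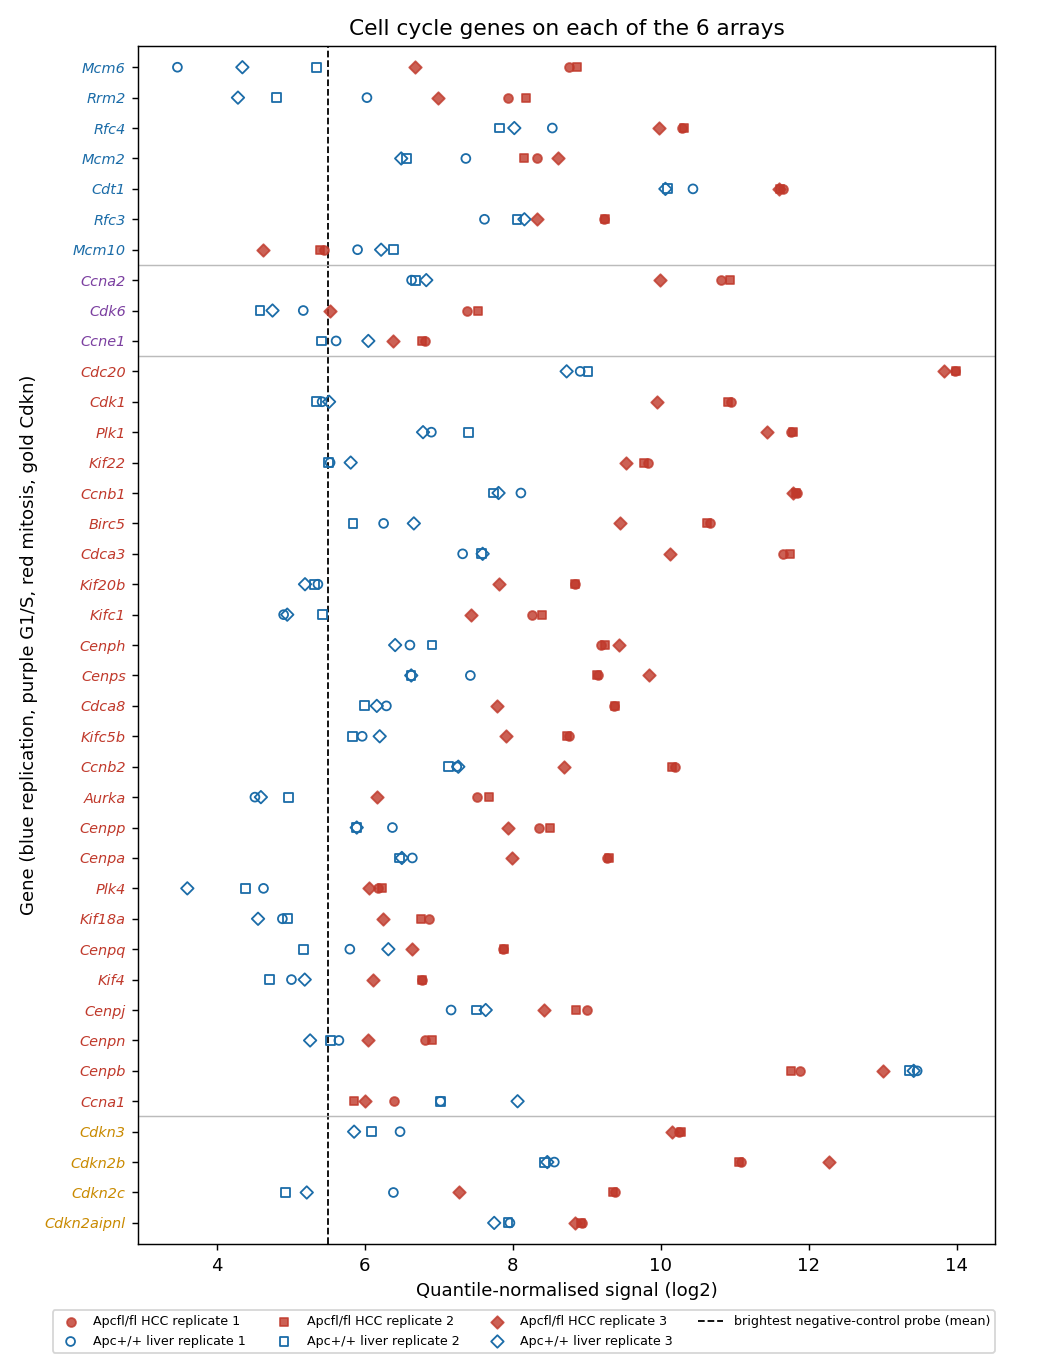
Quantile-normalised signal (log2) of the 39 replication, G1/S, mitosis and Cdkn genes on each of the 6 arrays, filled for Apcfl/fl HCC and open for Apc+/+ liver, with the mean of the brightest negative-control probe dashed at 5.50. In every gene the groups lie apart, and HCC replicate 3 (filled diamonds) lies left of the other HCC arrays in most genes that are higher in HCC.

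Mitosis genes held the largest changes of the 51 members. Cdc20, the activator of the anaphase-promoting complex, read 13.97, 13.99 and 13.83 in HCC and 8.91, 9.02 and 8.73 in liver. All 3 HCC arrays were nearly equal, and the rise was 5.02 (SE 0.20), a fold of 32.4 (adjusted p 0.0125 by limma). Cdk1, the mitotic kinase, read 10.95, 10.91 and 9.96 in HCC and 5.43, 5.35 and 5.52 in liver. It rose by 5.01 (SE 0.33, fold 32.2, adjusted p 0.0155 by limma), and its liver arrays were level with the brightest negative-control probe, so the size of its rise is uncertain. Ccnb1, the cyclin B that activates Cdk1, read 11.84, 11.83 and 11.79 against 8.11, 7.74 and 7.81, a rise of 3.93 (SE 0.21, adjusted p 0.0125 by limma). Its 3 HCC arrays were nearly level. Plk1, the Polo kinase of mitotic entry, read 11.76, 11.78 and 11.43 against 6.90, 7.40 and 6.79, a rise of 4.57 (SE 0.27, adjusted p 0.0137 by limma). Aurka, the Aurora kinase of the spindle poles, read 7.52, 7.68 and 6.17 in HCC and 4.52, 4.97 and 4.60 in liver. Its change of 2.19 (SE 0.47, fold 4.57) did not pass the threshold with 5 samples (adjusted p 0.0931 by limma) and passed it with 6 arrays (adjusted p 0.0237). At 4.69 its liver mean was also under the negative-control level of 5.50, which leaves the size of its change uncertain.

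On the spindle and the chromosomes, Kif22, a kinesin that pushes chromosome arms to the spindle equator, read 9.82, 9.78 and 9.53 in HCC and 5.53, 5.51 and 5.81 in liver. It rose by 4.05 (SE 0.21, adjusted p 0.0125 by limma). Its liver arrays lay close to the brightest negative-control probe, and with normexp background correction the rise was 2.95, so its size is uncertain. Birc5 (survivin), a subunit of the chromosomal passenger complex, read 10.67, 10.63 and 9.45 against 6.26, 5.84 and 6.67, and rose by 3.79 (SE 0.45, adjusted p 0.0356 by limma). HCC replicate 3 stood below the others in Birc5, while in Kif22 the 3 HCC arrays were close. The 6 mitotic kinesins were all higher, from 1.47 for Kif4 to 4.05, and 4 passed the threshold, namely Kif22, Kif20b (3.04), Kifc1 (2.78) and Kifc5b (2.32). The probes of Kifc1 and Kifc5b may read each other's transcript. Of the 7 centromere and kinetochore genes 6 were higher, with a median of 2.10 over the 7. Cenph (2.68), Cenps (2.60) and Cenpp (2.13) rose past the threshold. Cenpa, the histone that marks the centromere, was higher by 2.10 with an adjusted p of 0.0811 by limma. Cdca3, which triggers the breakdown of the brake kinase Wee1, rose by 3.41 (adjusted p 0.0484). Cdca8 of the passenger complex (2.43), the cyclin Ccnb2 (2.22) and the centriole kinase Plk4 (1.92), did not pass, with adjusted p-values from 0.0730 to 0.0889 by limma. The other higher genes of mitosis, Kif18a, Cenpq, Cenpn and the centriole gene Cenpj, had changes from 0.97 to 1.73 and did not pass either.

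The mitosis genes that were lower in HCC were Ccna1 and Cenpb. Ccna1 is the cyclin A of the germ line. It read 6.40, 5.86 and 6.00 in HCC and 7.03, 7.02 and 8.07 in liver, a change of -1.31 (SE 0.39, adjusted p 0.174 by limma). Cenpb binds the repeats of centromeric DNA through the whole cell cycle. It read 11.89, 11.77 and 13.00 in HCC and 13.47, 13.36 and 13.42 in liver, a ratio of HCC to liver of 0.499 (adjusted p 0.261 by limma). On HCC replicate 3 the log2 change was -0.42, and on the mean of the other HCC arrays it was -1.59.

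The Cdkn genes were all higher in HCC. Cdkn3, a phosphatase that acts on CDKs, read 10.25, 10.27 and 10.15 in HCC and 6.48, 6.09 and 5.86 in liver. It rose by 4.06 (SE 0.25, adjusted p 0.0137 by limma), evenly in the 3 HCC arrays. Cdkn2b (p15INK4b), an inhibitor of Cdk4 and Cdk6, read 11.09, 11.07 and 12.27 against 8.56, 8.43 and 8.47, a rise of 3.18 (SE 0.39, adjusted p 0.0366 by limma). Here HCC replicate 3 was the highest array. Cdkn2c (p18INK4c), of the same inhibitor family, read 9.38, 9.36 and 7.27 against 6.39, 4.94 and 5.22, a change of 2.81 (SE 0.77, adjusted p 0.148 by limma), with HCC replicate 3 the lowest of its group. Its liver mean was level with the brightest negative-control probe, and with normexp background correction the change was 1.81, so its size is uncertain. Cdkn2aipnl, which shares the prefix through its name and is no CDK inhibitor, read 8.94, 8.93 and 8.85 against 7.96, 7.94 and 7.75, a change of 1.01 (SE 0.19, adjusted p 0.0745).

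The remaining family members were set apart because most of them are known for tasks outside replication and mitosis, though Cdk7 activates the cell cycle CDKs and Plk2 also acts on centrioles. Cdc42se1, a small binding partner of the GTPase Cdc42, rose past the threshold, from 11.88, 12.05 and 12.17 in liver to 13.62, 13.50 and 13.96 in HCC (change 1.73, SE 0.23, adjusted p 0.0409 by limma). The kinesins Kif26a and Kif1b, of which Kif1b carries cargo along microtubules, were higher by 2.30 (SE 0.50, adjusted p 0.0974) and 1.19 (SE 0.26, adjusted p 0.0982). Kif26a read 9.62 and 9.72 on HCC replicates 1 and 2 and 11.27 on replicate 3, against 8.06 to 8.37 in liver. Cdkl3, the member with 2 probes, was higher by 1.05 on the brighter probe and 1.60 on the other. Kif3a and Cdk7 were higher by 0.89 and 0.86.

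Of the 6 remaining members that were lower, none passed the threshold with 5 samples. Cdk19, a kinase of the Mediator complex, read 9.23, 9.30 and 9.10 in HCC and 10.81, 10.30 and 10.28 in liver, a change of -1.29 (SE 0.25, adjusted p 0.0792 by limma, 0.0174 with 6 arrays). Cdc37, the partner of Hsp90 for client kinases, read 10.33, 10.31 and 9.45 against 11.36, 10.89 and 11.06, a change of -1.22 (SE 0.33, adjusted p 0.148). HCC replicate 3 was the farthest from liver in Cdc37, and the 3 HCC arrays of Cdk19 were close. Plk2, a Polo kinase induced by stress, read 4.97, 4.78 and 5.08 against 5.67, 6.28 and 6.43, a change of -1.15 (SE 0.29, adjusted p 0.132), with the HCC mean under the brightest negative-control probe. Cdc42ep2, an effector of Cdc42, read 8.26, 8.34 and 9.33 against 9.74, 10.07 and 9.98, a change of -1.12 (SE 0.36, adjusted p 0.197). Its HCC replicate 3 lay nearer to liver. Cdk16, a kinase of the PCTAIRE family, read 8.26, 8.26 and 8.37 against 9.47, 9.24 and 9.40, a change of -1.06 (SE 0.19, adjusted p 0.0691 by limma, 0.0115 with 6 arrays). Cdk5r1, the p35 activator of Cdk5, read 7.73, 7.82 and 7.95 against 8.49, 8.72 and 9.09, a change of -0.91 (SE 0.25, adjusted p 0.153). Together with Mcm10, Ccna1 and Cenpb these made 9 lower members with a median of -1.14, and their adjusted p-values lay between 0.0691 and 0.261 by limma. With 6 arrays Cdk19, Cdk16 and Plk2 passed the threshold.

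The HCC samples also differed from each other. The table was selected on a p-value, which depends on the spread among the HCC arrays, so this comparison is not independent of the selection and is given as a description. Replicates 1 and 2 agreed within 0.05 at the median member, and replicate 3 was compared with their mean. Of the 32 replication, G1/S and mitosis genes that were higher in HCC, 29 read lower on replicate 3 than on both other HCC arrays, with a median difference of -0.83. Among the 1264 other listed mRNA probes that were higher, 66.0% did so (median -0.43), and of all tested probes 41.1% (median 0.02). The mitosis genes that were higher had a median change over liver of 2.91 in replicates 1 and 2 and of 1.90 in replicate 3. For the 6 replication genes that were higher these medians were close, at 1.80 and 1.82. Gene by gene, 5 of the 6 read lower on replicate 3 than on both other arrays, with a median difference of -0.61. The size of the difference varied between genes. It was largest in Mcm6 (-2.13), Cdkn2c (-2.10) and Cdk6 (-1.93), was -1.43 in Aurka and -0.97 in Cdk1, and was small in Cdc20 (-0.16), Ccnb1 (-0.04) and Cdt1 (-0.03). Cenph (0.22), Cenps (0.70) and Mcm2 (0.37) were higher on replicate 3, as were Kif26a (1.60) and Cdkn2b (1.19) outside these roles. The 9 members that were lower in HCC had a median difference of 0.11. With a single sample on each side this comparison has no test.

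**Figure D3:**
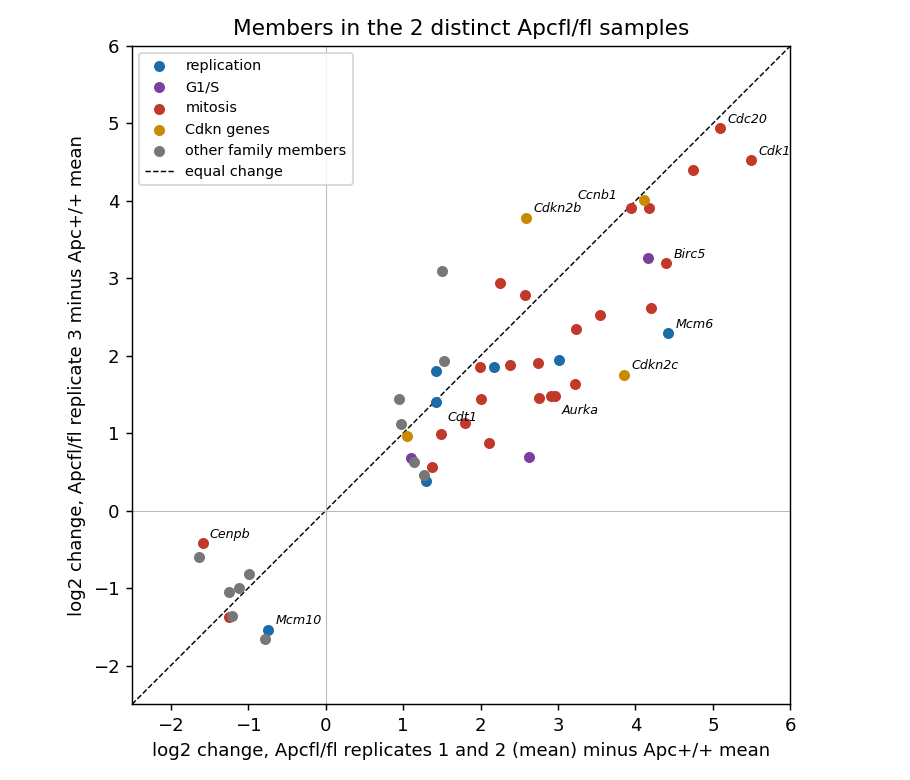
Log2 change over the Apc+/+ mean of each member in the 2 distinct Apcfl/fl samples, the mean of replicates 1 and 2 across and replicate 3 upwards, with points coloured by role and a dashed line at equal change. Most replication and mitosis genes lie below the line, as Mcm6 at 4.42 and 2.29, while Cdc20 and Ccnb1 lie near it and Cdkn2b above it.

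The first part of the barcode field in the scanner headers was read here as the slide row, and it had 2 values. Row 1 held the 3 HCC arrays and Apc+/+ replicate 1, and row 2 held the other liver arrays. A fit that blocks on the row takes the group difference from row 1 alone. Since the groups did not overlap in any member, the directions could not change there. The median change was then 2.29 for mitosis and 1.17 for replication, Cdc20 was higher by 4.99 and Mcm10 lower, at -0.87. No member passed the adjusted threshold by limma (lowest adjusted p 0.144). An unadjusted p below 0.05 by limma was reached by 35 of the 51 members and by 5179 of all 45640 tested probes. Nothing is read from the 35, because the members were selected on this contrast. The count of 18 also became 0 after removal of any single Apc+/+ array. In 14 members the probe was not well above background on a liver array, in each case Apc+/+ replicate 2, the array with the lowest share of such probes. That array also had the lowest share among negative-control spots, at 8.25%, against 24.8% to 57.6% on the others. The lower group mean was below the brightest negative-control probe in 13 members, and the sizes of these changes are uncertain. Of them Cdk1, Kif20b and Kifc1 passed the threshold, and the others were Mcm6, Rrm2, Mcm10, Cdk6, Aurka, Plk4, Kif18a, Kif4, Cenpn and Plk2. Further members, Kif22 and Cdkn2c among them, lay just above that level.

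Further genes of the same processes, outside the symbol rule, were sought by name among the listed probes, with the same selection. Of 45 further replication genes 7 were listed, all higher, with a median of 2.04. The helicase partner Gins2 was higher by 3.26 and the chromatin assembly subunit Chaf1b by 2.40, and Dscc1, of the alternative clamp loader, rose by 2.37 (adjusted p 0.0405 by limma), as the 1 of the 7 past the threshold. With 6 arrays 7 passed. Of 69 further mitosis genes 23 were listed, all higher, with a median of 2.29. The threshold was passed by 9 with 5 samples and by 18 with 6 arrays. With 5 samples 1.92% of all tested probes passed, and 19.1% of the listed mRNA probes outside the members. With 6 arrays 3.44% of all tested probes passed upwards. Nothing is read from these counts either. The largest changes were those of the microtubule proteins Ckap2 (4.06, adjusted p 0.0627) and Dlgap5 (4.01, adjusted p 0.0163) and of the spindle checkpoint kinase Ttk (3.99, adjusted p 0.0137). The liver mean was under the negative-control level in 3 of the 7 (Gins2, Dscc1 and Prim1) and in 7 of the 23 (Ckap2 included), which leaves the size and rank of their changes uncertain. On HCC replicate 3, 21 of the 23 and 5 of the 7 read lower than on both other HCC arrays. So did 66.0% of the listed mRNA probes that were higher outside the members, and 41.1% of all tested probes.

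Markers of cell types differed in the same contrast and were named under the same selection. Of 16 hepatocyte genes 5 were listed, all lower, and their summed linear signal was 25701 to 51377 on the HCC arrays and 144309 to 203328 on the liver arrays. Cyp2e1 fell by 4.06 (adjusted p 0.0194 by limma), and Cyp1a2 and Apoa1 were lower by 2.38 each without passing. Of 20 leukocyte genes 3 were listed, all higher, summing to 20567 to 40438 in HCC and 7372 to 13949 in liver, and none passed. Most of that sum was H2-Ab1. Of 14 stromal and endothelial genes 2 were listed, Lrat and Pecam1, both lower, summing to 59.2 to 130.2 in HCC and 230.7 to 289.8 in liver. Of 9 bile duct and progenitor genes 2 were listed, both higher, summing to 5211 to 15295 in HCC and 189.9 to 390.5 in liver. Nearly all of that sum was Spp1, which rose 32.1-fold (adjusted p 0.0351 by limma). The other, Prom1, read 7.09, 7.17 and 6.26 in HCC on the log2 scale, and its liver mean, 3.85, was under the negative-control level. No listed marker was at 0, since arrays give each probe a signal. The part of a change in cell types in the levels of the division genes was not tested.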

How the data were processed

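RNA of 3 Apcfl/fl HCC and 3 Apc+/+ liver samples, freed of rRNA and amplified by random priming, was hybridised to 6 one-colour Arraystar mouse lncRNA arrays. The authors extracted the arrays with Agilent Feature Extraction (version 11.0.1.1, from the submitters' processing notes), and the deposited scanner files hold background-subtracted intensity per spot. A deposited table of the authors holds quantile-normalised log2 values of the 4197 distinct probes they called. Its columns of fold changes and p-values were not used. Grouping followed the labels.

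Control spots and flagged spots were left out, log2 processed intensities were averaged per probe, and 59631 probes were quantile normalised, as in the study's methods. The 45640 probes well above background on at least 3 of 6 arrays were tested with limma (version 3.58.1, R 4.3.3), two-sided, with no covariate. The mean of Apcfl/fl replicates 1 and 2 was 1 sample. The fit was tested on simulated data. Values after SE are standard errors. Names came from RefSeq (GRCm38.p6) through the accessions in the table, with 41 listed mRNA probes left without a symbol. The authors' own log2 columns chose the brightest probe. They lie above the levels here by 0.52 at the median, and no member's change differed by more than 0.27. Alternatives were other background correction, scaling, filters, tests, blocks and left-out arrays. For normexp the median spot signal stood in for the mean, which was not in the files.

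The members, roles, motifs and gene lists were chosen with earlier results of these data known. Named are the 4 markers, all replication, G1/S and Cdkn genes, the 6 mitosis genes with the largest rise, the 3 largest rises among the other members, every member that was lower and at most 3 per further list each way. Other members were named beyond this rule after their values were seen. Same-numbered arrays of the groups did not deviate together across probes (correlations of 0.06, -0.07 and 0.04), and the main fit did not pair them. Whether they shared an origin or a batch was not tested.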

Additional observations from a re-analysis of the deposited data

How the results depend on the processing

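Under the alternatives run, 42 members were higher in HCC, or 28 of the 37 that remained with a filter requiring a signal well above background on all 6 arrays. The members were selected on this contrast and their groups did not overlap on any array, so leaving out, averaging or blocking samples could not turn a direction. Of 955 comparisons of a member with an alternative, 766 were scored as unchanged and 1 as moved. Another 40 newly passed the threshold, and 148 that had passed in the main fit failed it. The 955 include the authors' normalised columns, on which no test was run, so no threshold applied there. They also include averaging over a gene's probes, which could alter only Cdkl3, the member with more than 1 probe. The 766 therefore include comparisons that could not change sides. The count of 18 members past the threshold became 8 without a filter on dim probes, 37 with 6 arrays, and 0 by limma with Apc+/+ replicates 2 and 3 averaged as well (45 at an unadjusted p below 0.05), with the slide row as a block (35) and without Apcfl/fl replicates 1 and 2 together (37). The methods' t-test gave 0 after adjustment (40 at an unadjusted p below 0.05, 38 at the methods' threshold). Of all 45640 tested probes, 7299 and 3517 did so by the same t-test. Leaving out 1 array at a time gave 0 to 18, with 13 without Apcfl/fl replicate 3 and 0 without Apc+/+ replicate 1, 2 or 3. Of all tested probes 878 passed, against 1651 with normexp, 277 without a filter, 1966 with the stricter filter, 3441 with 6 arrays, 1900 by eBayes with trend and robust, 0 after averaging Apc+/+ replicates 2 and 3 (6201 at an unadjusted p below 0.05), 3 by the methods' t-test, 0 with the slide row (5179), 0 without Apcfl/fl replicates 1 and 2 (8516), and 0 to 973 leaving out 1 array. The median change of mitosis genes was 1.65 with normexp and 2.30 to 2.75 leaving out 1 array, and that of replication genes 1.43 to 1.89. Without Apcfl/fl replicates 1 and 2 together they were 1.88 and 1.80. With the replicate number as a block, over 6 arrays, 19 members and 1075 probes passed. The change ranged from 4.85 to 5.23 in Cdc20, 3.78 to 5.50 in Cdk1, 1.05 to 2.91 in Aurka, 1.77 to 4.42 in Mcm6 and -1.54 to -0.52 in Mcm10. The alternative without Apcfl/fl replicates 1 and 2 together was chosen after seeing the data. The filters change how many probes are tested, and for the other settings the cause was not tested. Signal near the negative controls limits the sizes given for 13 members, 3 of the 7 further replication genes and 7 of the 23 further mitosis genes.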
